A study of Mus musculus with 2 samples.

Results

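IgG plasma cells were examined in single-cell 5′ RNA libraries from the optic nerves of Nf1-OPG mice, 1 library from mice given an antibody against PD-1 and 1 from mice given an antibody against TIGIT. A barcode was taken as an IgG plasma cell when it had at least 500 genes, at most 10% mitochondrial UMIs, at least 20 UMIs of Jchain, at least 3 of Mzb1 and at most 1 UMI of Cd3d, Cd3e and Cd3g together, and when the highest of Ighm, Ighd, Ighg1, Ighg2b, Ighg2c, Ighg3 and Igha was an IgG gene. This rule found 377 cells among the 19784 barcodes within the first pair of limits, 279 of 12605 under anti-PD-1 and 98 of 7179 under anti-TIGIT. Jchain, Mzb1, the Cd3 genes and the class of the leading constant gene are the measured values the cells were selected on, and their levels are a description. Genes outside the rule went with the name. Sdc1, which encodes the plasma cell surface proteoglycan CD138, stood at 231 and 366 CPM (anti-PD-1 and anti-TIGIT, in this order throughout) against 0 and 2.96 CPM in B cells, and Pax5, the factor that holds B cell identity, at 1.54 and 1.67 CPM against 76.1 and 102 CPM.

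Plasma cells are the antibody-secreting end stage of the B cell lineage. They give up the B cell programme held by Pax5, take on one driven by Prdm1, Irf4 and Xbp1, and enlarge the endoplasmic reticulum to fold and export immunoglobulin. Class switching joins the rearranged variable region to another constant gene, so that a cell and its daughters keep the same variable segments while the heavy chain changes from IgM to IgG or IgA. In the nervous system such cells are known mainly from the meninges and from inflamed tissue, where IgA cells are often traced to the gut.

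In both groups the mice carried an Nf1 allele disrupted by a neomycin cassette and a floxed Nf1 allele that GFAP-Cre removes in neuroglial progenitors, which models the optic pathway glioma of neurofibromatosis. Plasma cells are no neuroglial cells, and loss of the floxed allele in them is not described. Each library pooled the nerves of 10 mice aged 12 weeks, and cells that excluded 7-AAD, a dye of dead cells, were sorted. With 1 library per treatment the groups have no replicates, no untreated library was analysed here, and treatment cannot be told apart from the pool of mice or from the Cell Ranger version, which was 8.0.0 for one library and 8.0.1 for the other. The protocol also mentions meningeal dura, and whether any dura entered these libraries is not said. The libraries held 85031565 and 40733655 UMIs over 13997 and 7915 barcodes. They shared 163 barcodes, none of them an IgG plasma cell in both, although 2 of the 377 barcodes occurred in the other library. Scrublet called none of the 377 cells a doublet. It marked 4.16% and 2.03% of the scored barcodes where 11.08% and 6.12% were expected, so its calls do not show that the 377 are single cells.

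Before the results, one difference between the libraries touches most of them. In the anti-PD-1 library 36 of the 279 IgG plasma cells (12.9%) held fewer than 1000 immunoglobulin UMIs, 54 (19.4%) held more than 20 UMIs of 11 microglia and macrophage markers, 23 held more than 15000 UMIs outside immunoglobulin segments and 4 held more than 3 UMIs of fibroblast and vessel markers. In the anti-TIGIT library the same counts were 0, 3, 2 and 0 of 98. A narrower set without these cells had 200 left under anti-PD-1 and 93 under anti-TIGIT. It was formed after the values had been seen, and other limits could have been chosen. Results are given with all cells first and, where it is named, in the narrower set second. Depth, V segment pairs, sex markers, the mix of constant genes and the comparison with B cells are among those given for all cells only.

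The constant gene that leads in a cell splits the population by IgG subclass, and the first constant exon (CH1) is the one that follows the variable region in the transcript. The CH1 exons of the 3 subclass genes that led in any cell are printed to show how far they can be told apart. They come from the GENCODE M21 annotation of GRCm38, the assembly also called mm10, and lie on the minus strand at chr12:113288642-113288932 (Ighg2c), chr12:113307643-113307933 (Ighg2b) and chr12:113330233-113330523 (Ighg1). Each has 291 bases, and capitals mark the 51 positions at which the 3 genes do not share 1 base.
Ighg2c: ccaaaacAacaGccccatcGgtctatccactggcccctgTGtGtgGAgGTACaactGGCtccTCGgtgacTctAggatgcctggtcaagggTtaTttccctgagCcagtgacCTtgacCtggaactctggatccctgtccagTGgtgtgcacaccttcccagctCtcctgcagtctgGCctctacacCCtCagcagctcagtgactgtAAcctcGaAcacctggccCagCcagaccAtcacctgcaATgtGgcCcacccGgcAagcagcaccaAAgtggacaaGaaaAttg
Ighg2b: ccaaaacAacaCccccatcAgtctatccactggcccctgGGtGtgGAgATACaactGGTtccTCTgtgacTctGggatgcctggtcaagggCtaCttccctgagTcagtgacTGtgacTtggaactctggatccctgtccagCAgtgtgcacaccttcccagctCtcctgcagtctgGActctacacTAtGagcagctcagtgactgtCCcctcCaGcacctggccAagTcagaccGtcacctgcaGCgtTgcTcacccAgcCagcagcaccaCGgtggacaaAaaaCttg
Ighg1: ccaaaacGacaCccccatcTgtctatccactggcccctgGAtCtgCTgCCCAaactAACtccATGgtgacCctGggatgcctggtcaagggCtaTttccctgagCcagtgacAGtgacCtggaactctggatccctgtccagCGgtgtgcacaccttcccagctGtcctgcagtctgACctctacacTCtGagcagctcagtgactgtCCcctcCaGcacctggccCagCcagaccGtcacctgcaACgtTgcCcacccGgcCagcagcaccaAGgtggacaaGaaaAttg
Ighg2c and Ighg2b had 87.6% of CH1 bases in common, Ighg2c and Ighg1 88.0%, and Ighg2b and Ighg1 88.3%, and their longest runs without a difference were 34, 28 and 37 bases.

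Some variable segments are also hard to tell apart. In 41 of the 377 cells Ighv1-77 and Ighv1-81 were the 2 leading heavy chain V segments, neither with 80% of the UMIs. This was the most for any pair of heavy chain segments. The last 294 bases of both V exons are printed next, at chr12:115861867-115862160 and chr12:115920279-115920572. Both lie on the minus strand, and capitals mark the positions that differ. The following 300 bases are the ends of the V exons of the pair of segments found in both libraries with the most IgG plasma cells, Ighv8-12 at chr12:115647945-115648244 and Igkv8-21 at chr6:70314895-70315194, both on the minus strand, with the codon of the conserved cysteine ahead of the third complementarity-determining region in capitals.
Ighv1-77: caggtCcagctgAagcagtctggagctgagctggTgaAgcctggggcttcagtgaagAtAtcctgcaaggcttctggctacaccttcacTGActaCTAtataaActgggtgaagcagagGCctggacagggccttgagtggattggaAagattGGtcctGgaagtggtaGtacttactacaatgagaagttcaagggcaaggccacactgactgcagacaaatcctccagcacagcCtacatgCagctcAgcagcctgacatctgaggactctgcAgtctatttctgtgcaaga
Ighv1-81: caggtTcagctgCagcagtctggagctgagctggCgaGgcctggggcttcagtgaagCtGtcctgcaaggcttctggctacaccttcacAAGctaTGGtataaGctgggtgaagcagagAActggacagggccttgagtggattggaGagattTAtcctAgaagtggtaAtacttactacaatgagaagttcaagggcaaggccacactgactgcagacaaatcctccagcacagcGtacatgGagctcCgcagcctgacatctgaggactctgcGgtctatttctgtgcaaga
Ighv8-12: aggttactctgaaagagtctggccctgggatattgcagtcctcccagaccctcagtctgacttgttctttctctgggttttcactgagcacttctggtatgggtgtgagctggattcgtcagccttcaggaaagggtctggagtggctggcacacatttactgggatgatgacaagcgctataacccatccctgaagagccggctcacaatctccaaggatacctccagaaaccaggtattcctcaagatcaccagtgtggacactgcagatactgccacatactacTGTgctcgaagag
Igkv8-21: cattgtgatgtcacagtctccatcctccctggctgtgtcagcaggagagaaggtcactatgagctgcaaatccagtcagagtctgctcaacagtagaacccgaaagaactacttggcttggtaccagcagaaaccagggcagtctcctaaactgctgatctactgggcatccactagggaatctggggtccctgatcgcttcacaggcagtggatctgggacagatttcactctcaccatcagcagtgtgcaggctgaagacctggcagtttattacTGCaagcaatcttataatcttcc
The first pair differed at 24 of 294 positions (91.8% identity), with 66 bases as the longest stretch in common. A cell whose heavy chain UMIs were divided so that no segment held 80% of them got no call.

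IgG plasma cells were large libraries filled with antibody transcripts. UMIs per cell ranged from 1271 over a median of 16222 to 76119 in the anti-PD-1 library and from 2847 over 17908.5 to 32096 in the anti-TIGIT library, against medians of 5120 and 4453 over all kept barcodes. Immunoglobulin segments took a median of 60.5% and 69.0% of a cell's UMIs. The spread was widest on the low side in the anti-PD-1 library, where immunoglobulin UMIs ran from 271 over a median of 10047 to 35436, while in the anti-TIGIT library they ran from 1351 over 12105 to 24998.

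Libraries of this 5′ kind read transcripts from the end at which the variable segments lie, and those segments dominated the immunoglobulin UMIs. Light chain V segments held a median of 74.4% and 69.3% of them, heavy chain V segments 19.1% and 24.8%, heavy chain constant genes 2.0% and 2.09% and Igkc, the kappa constant gene, 1.97% and 1.66%. The call of the subclass thus rested on a median of 182 and 239.5 heavy chain constant UMIs per cell. The lowest cell had 1 such UMI in the anti-PD-1 library and 20 in the anti-TIGIT library. The leading gene held a median of 89.6% and 92.4% of these UMIs, less than 80% in 54 and 3 cells, and was tied with another in 3 and 0.

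Jchain, which encodes the chain that joins IgA and IgM into polymers, ran from 20 over a median of 417 to 3055 UMIs per cell and from 47 over 402.5 to 1763. Mzb1, a chaperone of antibody assembly in the endoplasmic reticulum, ran from 3 over 50 to 361 and from 4 over 49.5 to 328. Cells close to the limits were mostly in the anti-PD-1 library. With Jchain of 20 to 29 UMIs there were 12 and 0 cells just inside the rule, and with 10 to 19 UMIs 8 and 1 just outside. With 3 or 4 UMIs of Mzb1 there were 23 and 1 cells inside, and with 1 or 2 UMIs 19 and 0 outside. With 1 Cd3 UMI there were 27 and 2 cells inside, and with 2 or more 78 and 13 outside.

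**Figure D1:**
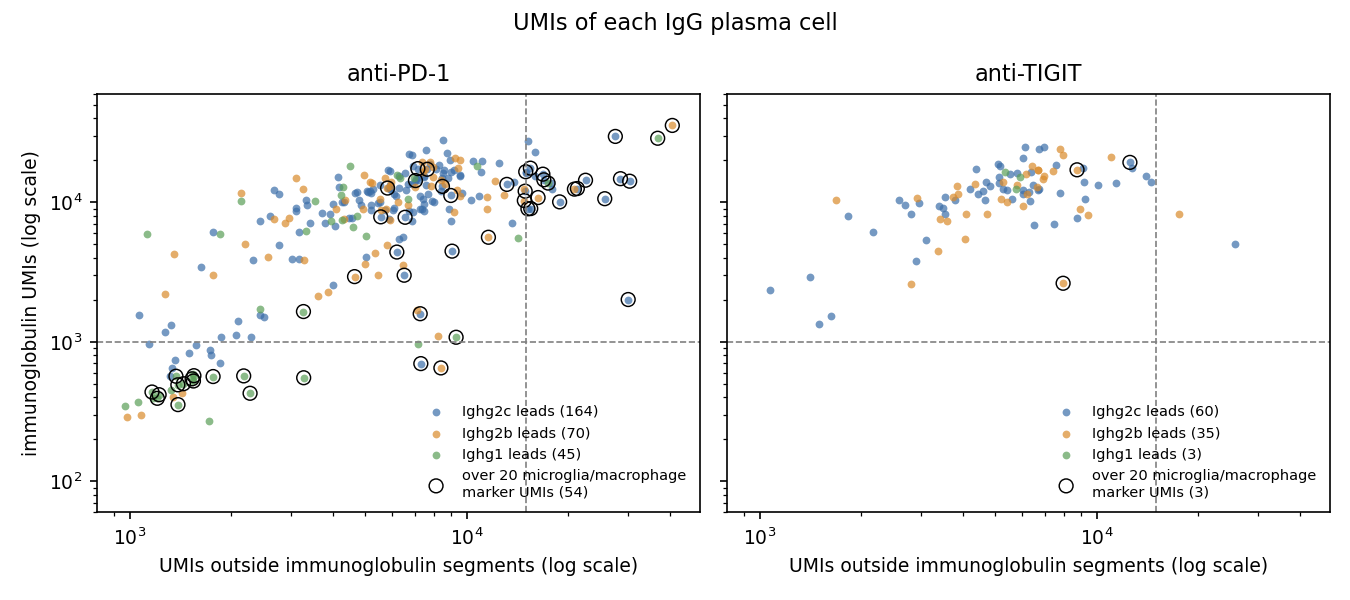
UMIs of each IgG plasma cell, with UMIs outside immunoglobulin segments on the x axis and immunoglobulin UMIs on the y axis, both log scales, 1 point per cell coloured by its leading constant gene, and open circles around cells with more than 20 microglia and macrophage marker UMIs. The dashed lines stand at 1000 immunoglobulin UMIs and 15000 other UMIs. The 36 cells under the horizontal line are all from anti-PD-1 mice and 21 of them are led by Ighg1.

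Counted over all cells of the rule, IgG plasma cells were a larger share of the anti-PD-1 library. They made up 2.21% of kept barcodes (279 of 12605, 95% Clopper-Pearson interval 1.96 to 2.49) and 1.37% (98 of 7179, 1.11 to 1.66), a difference of 0.848 percentage points (0.461 to 1.22). Intervals here and below cover counting error only, since cells of a pool are not replicates and the spread between mice is unknown. In the narrower set the difference was 0.291 points with an interval that holds 0 (-0.0667 to 0.632), and without the cells of the large V segment pairs described below it was 0.409 points (0.0832 to 0.72). IgA plasma cells, found by the same rule with Igha leading, numbered 224 (1.78%) and 108 (1.5%), a difference of 0.273 points whose interval, -0.109 to 0.637, holds 0. Plasma cells led by Ighm or Ighd numbered 2 and 0. Among all plasma cells IgG led in 279 of 505 (55.2%, 50.8 to 59.6) and in 98 of 206 (47.6%, 40.6 to 54.6), and the interval of that difference, -0.669 to 15.9 points, holds 0.

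Ighg2c was the main subclass in both libraries. It led in 164 of 279 cells (58.8%, 52.8 to 64.6) and in 60 of 98 (61.2%, 50.8 to 70.9), a difference of -2.44 points (-13.8 to 9.46). Ighg2b led in 70 cells (25.1%, 20.1 to 30.6) and in 35 (35.7%, 26.3 to 46.0), a difference of -10.6 points (-22.1 to 0.297). Ighg3 led in none, which allows a share of up to 1.31% and 3.69%.

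Ighg1 was the subclass in which the libraries stood apart. With anti-PD-1 it led in 45 cells (16.1%, 12.0 to 20.98) and in 3 of the anti-TIGIT library (3.06%, 0.636 to 8.69), a difference of 13.1 points (6.10 to 18.5). The size of that difference depended on the cells with few antibody transcripts, 21 of which were led by Ighg1. Among cells with at least 1000 immunoglobulin UMIs Ighg1 led in 24 of 243 (9.88%) and 3 of 98, a difference of 6.82 points (0.219 to 11.9), and in the narrower set in 20 of 200 and 3 of 93, where the interval of the difference, -0.246 to 12.4, holds 0. In addition, 14 of the 45 cells carried a single pair of V segments.

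**Figure D2:**
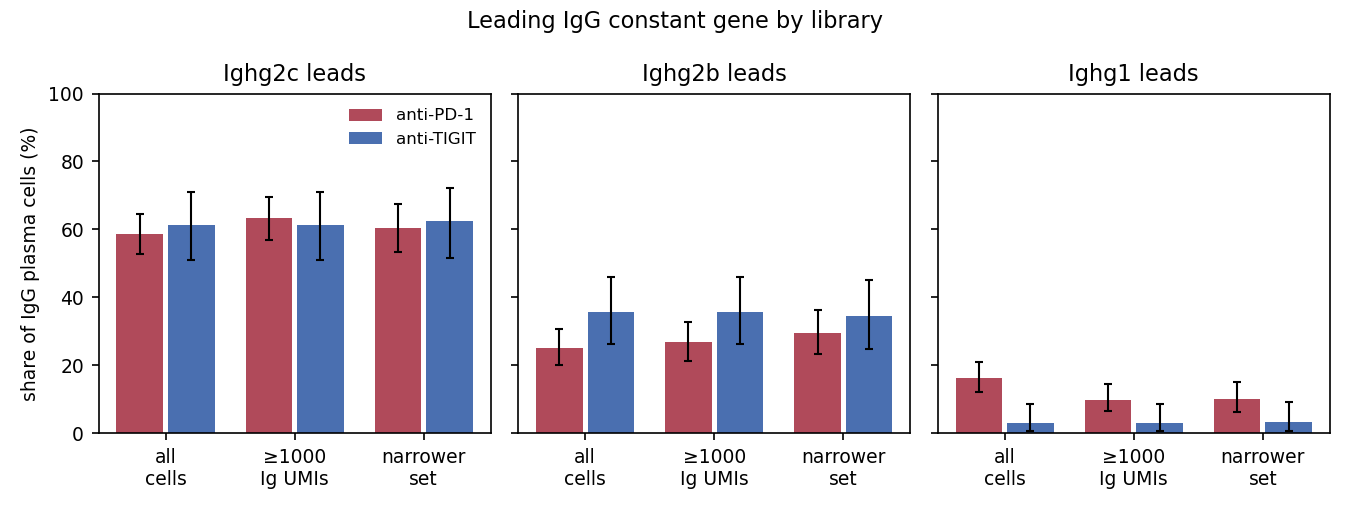
Share of IgG plasma cells (%, y axis from 0) led by Ighg2c, Ighg2b or Ighg1, for all cells, cells with at least 1000 immunoglobulin UMIs and the narrower set, with 1 bar per library and 95% Clopper-Pearson intervals for counting error. The Ighg1 bars stand at 16.1%, 9.88% and 10% in the anti-PD-1 library and near 3% in the anti-TIGIT library, while the Ighg2c bars of both libraries overlap within their intervals.

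The 36 cells with fewer than 1000 immunoglobulin UMIs were mostly small in other ways too, although their UMIs outside immunoglobulin segments reached 8377. Their median was 2033 UMIs, 548 of immunoglobulin, and the leading constant gene held a median of 59.8% of 14.5 heavy chain constant UMIs. Besides the 21 led by Ighg1, 5 were led by Ighg2b and 10 by Ighg2c. Among IgA plasma cells 16 of 224 and 1 of 108 lay under the same limit. Whether these barcodes are plasma cells with little antibody RNA or other cells with plasma cell RNA was not tested.

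Cells led by 1 subclass also held UMIs of others. In Ighg2c-led cells Ighg2c had 86.2% and 90.2% of all heavy chain constant UMIs, Ighg2b 4.88% and 4.83%, Ighg3 4.38% and 3.75%, and Igha 4.37% and 1.08%. Ighg2b-led cells were purer, with 94.3% and 96.6% of UMIs from Ighg2b, and in Ighg1-led cells Ighg1 had 97.0% and 99.8%. Per cell, Ighg2b-led cells had more constant region UMIs, with medians of 361 and 338, than Ighg2c-led cells, at 156.5 and 161.5. Ighg1-led cells differed between libraries, with a median of 129 heavy chain constant UMIs among 7065 UMIs under anti-PD-1 and of 338 among 21015 in the 3 cells under anti-TIGIT.

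A heavy and a light chain V segment could both be called in 125 of 279 cells (44.8%) and 47 of 98 (48.0%), at 3 or more UMIs and at least 80% of the chain's V segment UMIs. The light chain was called more often, in 244 and 90 cells, and was lambda in 1 cell of each library. The cells with both segments called fell into 34 and 18 pairs, of which 20 and 9 were held by at least 2 cells. Of the cells with both segments, 111 (88.8%, 81.9 to 93.7) and 38 (80.9%, 66.7 to 90.9) shared their pair with at least 1 other IgG plasma cell of the same library, and the 5 largest pairs held 54 cells (43.2%) and 29 (61.7%). When the heavy chain J segment was required to match as well, the shares were 81.7% and 61.8%. Mice were pooled and junctions were not analysed here, so a shared pair is not shown to be a clone.

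The most frequent heavy chain segments were Ighv1-81, in 18 and 8 cells, Ighv1-14, in 15 and 8, Ighv1-9, in 19 and 0, and Ighv8-12, in 14 and 4. Among light chains Igkv1-110 led in 59 of 244 (24.2%) and 8 of 90 (8.89%) and Igkv1-117 in 55 (22.5%) and 16 (17.8%). The pairs themselves were mostly private to a library. Of 34 pairs under anti-PD-1 and 18 under anti-TIGIT, 2 occurred in both, with 16 and 4 cells.

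Pairs tended to keep to 1 subclass. Ighv1-9 with Igkv4-58 was found in 14 cells under anti-PD-1, all led by Ighg1, and in no IgA cell. Ighv1-20 with Igkv1-110 was found in 11 cells, 10 of them led by Ighg2c and 1 by Ighg2b. In the anti-TIGIT library Ighv1-21 with Igkv1-110 was found in 8 cells, all led by Ighg2c, and Ighv1-81 with Igkv9-124 in 7, all led by Ighg2b. The pair whose V exons are printed above, Ighv8-12 with Igkv8-21, was mixed. It held 13 anti-PD-1 cells, 8 led by Ighg2c and 5 by Ighg2b, and 3 anti-TIGIT cells, all led by Ighg2c, and was the largest of the pairs seen in both.

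Many of these pairs were also carried by IgA plasma cells of the same library. The pair of 80 of 125 cells (64%) and of 24 of 47 (51.1%) was found in IgA cells of the same library, against 21 (16.8%) and 5 (10.6%) whose pair was found in IgA cells of the other library. Ighv8-12 with Igkv8-21 had 11 and 12 IgA cells, Ighv1-81 with Igkv6-14 had 8 IgG and 11 IgA cells under anti-PD-1, and Ighv1-81 with Igkv9-124 had 7 IgG and 13 IgA cells under anti-TIGIT. Other large pairs had none, among them Ighv1-9 with Igkv4-58, Ighv1-20 with Igkv1-110 and Ighv1-21 with Igkv1-110.

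Cells that shared a pair within a library were alike in features the pairing did not use. Of 469 such pairs of cells 83.2% had the same leading IgG gene, against 42.05% of all 8831 pairs of cells within a library. The same leading heavy chain J segment was found in 90.4% of 198 pairs of cells against 42.6%, and the same sex marker, Xist or a Y-linked gene, in 89.7% of 146 against 54.7%. Pairs of cells share cells with each other, so these percentages are descriptions.

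**Figure D3:**
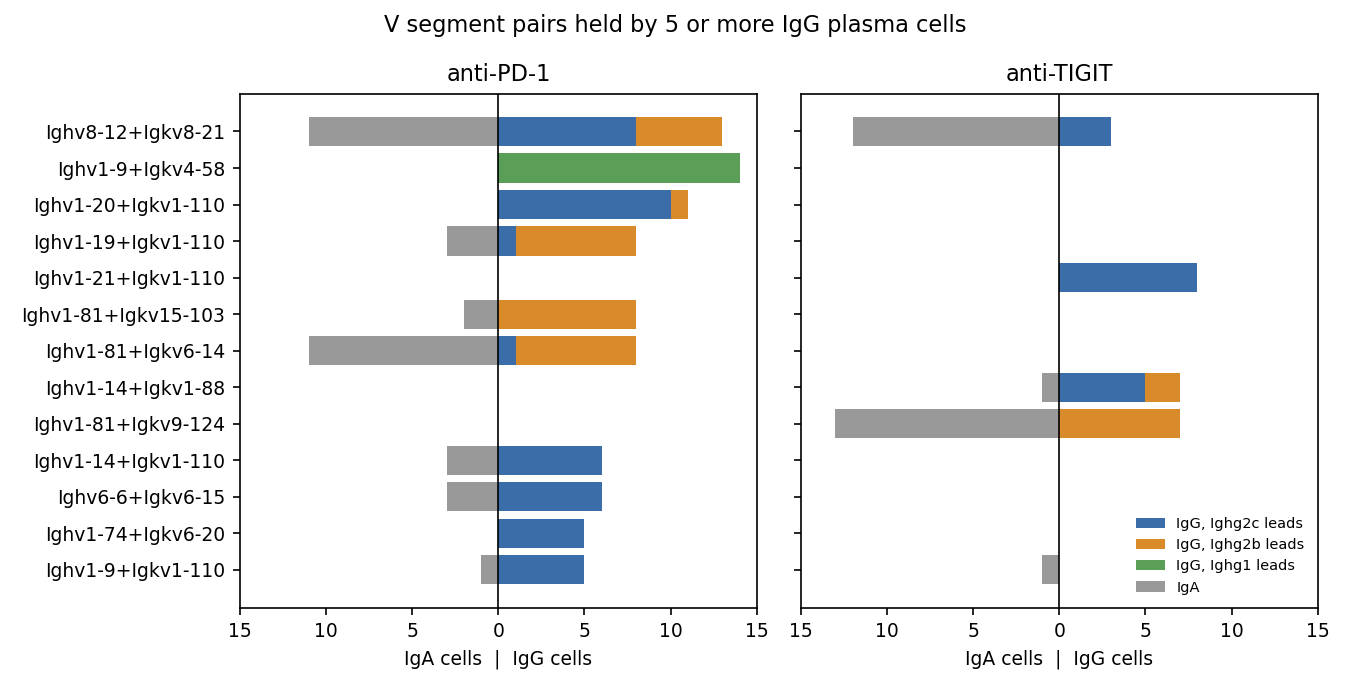
Number of cells (x axis) with each pair of V segments held by 5 or more IgG plasma cells, IgG cells to the right coloured by leading subclass and IgA cells to the left, 1 panel per library. Ighv1-9 with Igkv4-58 is the pair with 14 Ighg1-led cells, and Ighv8-12 with Igkv8-21 has IgG and IgA cells in both libraries.

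The sex markers set the libraries apart as well. In the anti-PD-1 library 63 IgG plasma cells had Xist alone and 84 Y-linked transcripts alone, and in the anti-TIGIT library 2 had Xist alone and 49 Y-linked transcripts alone. Xist cells were thus 42.9% and 3.92% of those with 1 kind of marker, against 47.3% and 8.20% in IgA plasma cells. Xist cells were 26.02% and 16.9% in B cells, and 47.8% and 39.0% in kept barcodes that were neither plasma cells nor B cells. Both kinds were seen in 9 and 3 IgG plasma cells, and neither in 123 of 279 and 44 of 98, whose sex of origin is unknown. Among the 84 and 49 cells with Y-linked transcripts alone, Ighg1 led in 9.01 percentage points more of the anti-PD-1 cells, with an interval that holds 0 (-2.76 to 18.8). In the comparison of levels described next, these cells gave 213 genes above and 49 below the 2-fold limit among 2840 genes, and all 24 genes named by size kept their direction. Their list medians were -0.57 for plasma cell identity, -0.38 for the unfolded protein response, -0.35 for translocation, 0.90 for MHC class II, 0.32 for the interferon gamma response and 2.08 for type I interferon, and that of the B cell programme, -0.15 in all cells, was 0.0065.

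Levels below are CPM of the UMIs outside 392 immunoglobulin segments, 1952946 in the anti-PD-1 library and 598176 in the anti-TIGIT library, summed over the IgG plasma cells of each. Ratios divide the anti-PD-1 level by the anti-TIGIT level and are given as log2 with their exact conditional 95% interval, and genes were counted by size on log2((CPM + 5)/(CPM + 5)). Among 5862 genes with at least 50 UMIs, 336 (5.73%) stood 2-fold or more above under anti-PD-1 and 36 (0.614%) 2-fold or more below. In the narrower set 52 of 4080 (1.27%) and 34 (0.833%) were. The median of all genes was 0.015, and nothing here was tested, as each treatment has 1 library. Sums cannot tell fewer cells with a transcript from less transcript per cell, so shares of cells are given where they bear on a gene.

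The genes furthest above in the anti-PD-1 library were chemokines and macrophage genes. Cxcl13, a chemokine that draws B cells, had 1246 UMIs in the anti-PD-1 library and 0 in the anti-TIGIT library (638 and 0 CPM, lower limit of the log2 ratio 6.69). Ccl5, a chemokine of activated T cells and macrophages, had 1252 UMIs and 1 (641 and 1.67 CPM, log2 ratio 8.58, interval 6.10 to 13.9). Cxcl9, induced by interferon gamma, had 415 and 0, and Ccl4 635 and 2. Mgp, a matrix protein of vessels and fibroblasts, had 625 and 0. The complement genes C1qa and C1qb of macrophages stood at 1413 and 1134 CPM in the anti-PD-1 library and at 48.5 and 28.4 CPM in the anti-TIGIT library.

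Further genes named on the high side by the same rule were Ccl12 with 700 and 4 UMIs, Serping1 with 238 and 0, Il1a with 219 and 0, and Aif1 with 239 and 1. Markers of microglia and macrophages moved with these genes. The 11 markers summed to 6717 and 421 CPM in all IgG plasma cells, and 10 of them had an interval above 0. The background of that rule was 10.1% of 10778 genes with at least 10 UMIs above 0 and 6.33% below, and in the narrower set 5.23% of 9017 above and 5.53% below. Per cell the markers ran from 0 over a median of 2 to 1040 UMIs in the anti-PD-1 library and from 0 over 0 to 166 in the anti-TIGIT library, with 92 of 279 and 77 of 98 cells at 0. P2ry12 and Ms4a7 were at 0 in the anti-TIGIT library. In all other kept barcodes the markers summed to 11446 and 10204 CPM.

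In the narrower set, which leaves out cells by these same markers, their sum was 295 and 39.9 CPM. Cxcl13 was then at 39.7 and 0 CPM, Ccl5 at 186 and 0, Cxcl9 at 50.5 and 0, Mgp at 62.9 and 0, Ccl4 at 9.93 and 0, C1qa at 48.0 and 3.80, and C1qb at 47.2 and 3.80. A Ccl5 UMI was seen in 37.99% of cells under anti-PD-1 and in 1.02% under anti-TIGIT. Oligodendrocytes, taken as barcodes with at least 2 UMIs each of Mog and Mag, gave 22.9% and 6.43%, at median depths of 7643.5 and 6695.5 UMIs outside immunoglobulin segments against 5926 and 5673.5 in IgG plasma cells. After thinning of each cell to 1000 such UMIs the shares were 22.4% and 0% in IgG plasma cells and 9.45% and 1.77% in oligodendrocytes. The share in IgG plasma cells thus lay above that of oligodendrocytes, which should lack the gene, in the anti-PD-1 library and below it in the anti-TIGIT library. The part of other cells' RNA in these genes was not tested.

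Prg2, the major basic protein gene of eosinophils, was the gene furthest above in the anti-TIGIT library. It had 43 UMIs in 279 cells and 241 UMIs in 98 cells (22.0 and 403 CPM, log2 ratio -4.19, interval -4.70 to -3.72). It was spread over cells, with a UMI in 9.68% and 52.0% of them and no cell over 19 UMIs. In oligodendrocytes the shares were 0% of 2444 cells, which allows up to 0.151%, and 0.156% of 1928. Thinned to 1000 UMIs the shares in IgG plasma cells were 2.89% (1.25 to 5.61) and 22.4% (14.6 to 32.0).

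IgA plasma cells held Prg2 in the same order, at 9.81 and 261 CPM, while all other barcodes had 0.464 and 10.2 CPM. The narrower set of IgG plasma cells gave 32.3 and 409 CPM. Prg2 cells with called V segments fell into 11 pairs in the anti-PD-1 library and 10 in the anti-TIGIT library, with at most 3 and 4 cells in 1 pair.

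Further genes lower in the anti-PD-1 library included kinases and regulators of survival. Pim2, a kinase that supports plasma cell survival, had 46 and 51 UMIs (23.6 and 85.3 CPM, log2 ratio -1.86, interval -2.46 to -1.25) and a UMI in 12.5% and 32.7% of cells, against 2.05% and 1.30% of oligodendrocytes. After thinning its shares were 3.61% and 8.16%, with intervals of 1.74 to 6.54 and 3.59 to 15.5 that overlap. Bcl2l11, which encodes the death-promoting protein Bim, had 19 and 34 UMIs (9.73 and 56.8 CPM), but 5 cells held 76.5% of those in the anti-TIGIT library.

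Tex14, a gene known from germ cell bridges, stood at 195 and 557 CPM (interval -1.73 to -1.30), Jarid2, a partner of Polycomb repressive complexes, at 102 and 262 CPM, and Itgb7, the integrin chain of gut homing, at 13.8 and 48.5 CPM. The remaining genes of the rule were Pglyrp1 at 15.4 and 70.2 CPM, Tmtc2 at 38.9 and 105, Cspp1 at 18.4 and 51.8, and Gimap4 at 41.5 and 105. A few cells decided 2 others. Ly6k had 84 and 96 UMIs in 10 and 7 cells, of which 5 held 86.9% and 93.8%. Hist1h2ae had 16 and 35 UMIs, 30 of the 35 in 1 cell, and stood at 11.6 and 9.51 CPM in the narrower set.

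Genes of plasma cell identity were lower in the anti-PD-1 library in all cells. Of 15 genes, 10 had an interval below 0 and 0 above, and the median log2 ratio was -0.46. Xbp1, which drives the secretory programme, stood at 1922 and 3178 CPM (log2 ratio -0.73, interval -0.81 to -0.64), Irf4 at 295 and 465, Sdc1 at 231 and 366, and Cd28, a receptor that sustains plasma cells, at 35.8 and 88.6 (-1.31, -1.84 to -0.76). Prdm1, the other master regulator, was at 159 and 150 CPM with an interval that holds 0 (-0.26 to 0.44). In the narrower set 6 genes lay below 0 and 1 above, at a median of -0.22, and Xbp1 was at 2372 and 3334 CPM, while Ly6c2, at 6233 and 7374 CPM in all cells, had an interval that holds 0 (-0.07 to 0.03).

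The secretory machinery followed in all cells and much less in the narrower set. For the unfolded protein response and folding 14 of 23 genes lay below 0 and 1 above (median -0.26), and in the narrower set 5 and 2 (median -0.055). For translocation and secretion 13 of 26 lay below 0 and none above (median -0.20), and in the narrower set 2 and 3 (median 0.00065). Hsp90b1, a chaperone of the endoplasmic reticulum, was the member with the most UMIs, at 4015 and 6109 CPM (log2 ratio -0.61, interval -0.66 to -0.55), with an interval of -0.38 to -0.26 in the narrower set. Herpud1, which takes part in removing misfolded proteins, went the other way, at 2068 and 1605 CPM (0.37, 0.26 to 0.47). With all UMIs in the denominator the medians of both lists turned to 0.057 and 0.12, as the median of all genes then stood at 0.27.

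Interferon-induced genes were mixed. In the list of the interferon gamma response and MHC class I, 10 of 22 genes lay above 0 and 2 below (median 0.23), and in the narrower set 4 and 2 (median 0.14). Gbp2, a guanylate-binding protein, had 232 and 2 UMIs (119 and 3.34 CPM, interval 3.28 to 8.21) and was at 53.8 and 1.90 CPM in the narrower set. A Gbp2 UMI was seen in 20.4% and 2.04% of IgG plasma cells, but also in 15.7% and 1.35% of oligodendrocytes. B2m, the light chain of class I molecules, was lower in the anti-PD-1 library, at 5580 and 7812 CPM (-0.49, -0.53 to -0.44), and H2-K1 was at 5387 and 5522 with an interval that holds 0.

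For type I interferon 9 of 14 genes lay above 0 and none below (median 0.80), and in the narrower set 3 of 7 with a median of 0.00076. Isg15, a ubiquitin-like protein, was at 212 and 66.9 CPM and at 172 and 62.8 CPM in the narrower set, with a UMI in 23.3% and 7.14% of IgG plasma cells and in 21.7% and 2.96% of oligodendrocytes. In the anti-PD-1 library 5 cells held 63.1% of its UMIs. Bst2, also called tetherin, was at 874 and 764 CPM (0.19, 0.04 to 0.35).

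Genes of MHC class II, which present antigen to CD4 T cells and are normally turned down in plasma cells, lay mostly above 0. Of 8 genes 7 lay above 0 and 1 below (median 0.73), and in the narrower set 6 and 0 (median 0.25). Cd74, the invariant chain, was at 17812 and 14320 CPM and H2-Aa at 2386 and 1510, falling to 1226 and 1040 in the narrower set. H2-Ob, which restrains peptide loading in B cells, was the gene below 0, at 33.3 and 55.2 CPM. Microglia and macrophages express these genes too, and their markers, summing to 6717 and 421 CPM, stood in the same order, with a part in this difference that was not tested. In the B cell programme 2 of 12 genes lay above 0 and 5 below, and in the narrower set 2 and 1 of 10.

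Among survival and homing genes, those whose interval leaves out 0 lay more often below it than above. In the survival list 1 of 14 genes lay above 0 and 5 below (median -0.026), and in the narrower set 0 and 4. Pim1, a kinase related to Pim2, was at 333 and 619 CPM (-0.89, -1.08 to -0.71), and Mcl1, a survival factor that plasma cells need, at 453 and 547. Among homing and adhesion genes 3 of 20 lay above 0 and 7 below (median -0.12), and in the narrower set 1 and 3 of 14. Cxcr4, the receptor that holds plasma cells in bone marrow, was at 76.8 and 145 CPM (-0.92, -1.31 to -0.52), and Cxcr3, a receptor of interferon-induced chemokines, at 190 and 271, with an interval that holds 0 in the narrower set. Cd9, a tetraspanin, was at 334 and 70.2 CPM and at 176 and 60.9 CPM in the narrower set.

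The receptors targeted by the antibodies were scarce in IgG plasma cells. Pdcd1 had 5 and 0 UMIs, and 0 and 0 in the narrower set. Tigit stood at 35.3 and 51.8 CPM, with an interval that holds 0 (-1.18 to 0.11). Cd274, which encodes PD-L1, the ligand of PD-1, was at 341 and 303 CPM, also with an interval that holds 0 (-0.07 to 0.42). Across 15 checkpoint and regulatory genes 3 lay above 0 and 3 below, and in the narrower set 0 and 3 of 11. Ctla4 was at 51.7 and 81.9 CPM (-1.17 to -0.14). Lag3 had 162 UMIs against 1 in all cells but stood at 4.97 and 1.90 CPM in the narrower set.

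The other lists gave these counts above and below 0. For dissociation stress they were 10 and 0 of 13 genes (median 0.45), and 5 and 1 of 11 in the narrower set. For the cell cycle they were 5 and 2 of 14, for nutrient uptake 3 and 3 of 16, for class switching and T-bet genes 3 and 0 of 11, for cytokines and ligands 4 and 2 of 9, and for plasma cell survival factors made by other cells 8 and 0 of 11. In the narrower set these lists gave 5 and 0 of 12, 1 and 3 of 16, 0 and 0 of 8, 2 and 1 of 5, and 3 and 1 of 7, in the same order. The summed levels of the last 2 lists changed order with the cells, from 1327 and 333 to 286 and 308 CPM for cytokines and ligands and from 1290 and 229 to 182 and 232 CPM for survival factors. Among markers of other cell types they were 1 and 0 of 7 for oligodendrocytes, with sums of 2914 and 2324 CPM, 3 and 0 of 4 for fibroblasts and vessels, with 203 and 38.5 CPM, 2 and 1 of 5 for dendritic cells, with 60.4 and 78.6 CPM, and 1 and 0 of 3 for T and NK cells, with 30.2 and 10.0 CPM. The narrower set gave 2 and 1 of 7 for oligodendrocytes and 0 and 0 of 1 for fibroblasts and vessels and for dendritic cells, and no T and NK cell marker reached 10 UMIs. The lists were chosen with earlier results of these data known, and their counts stand beside the background given above. Among the 5862 genes with at least 50 UMIs the background was higher, with 12.1% above 0 and 9.57% below. In the narrower set 323 and 341 of 4080 were above and below. Lists of abundant genes, such as plasma cell identity and the secretory lists, are thus set against a background of genes with fewer UMIs.

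**Figure D4:**
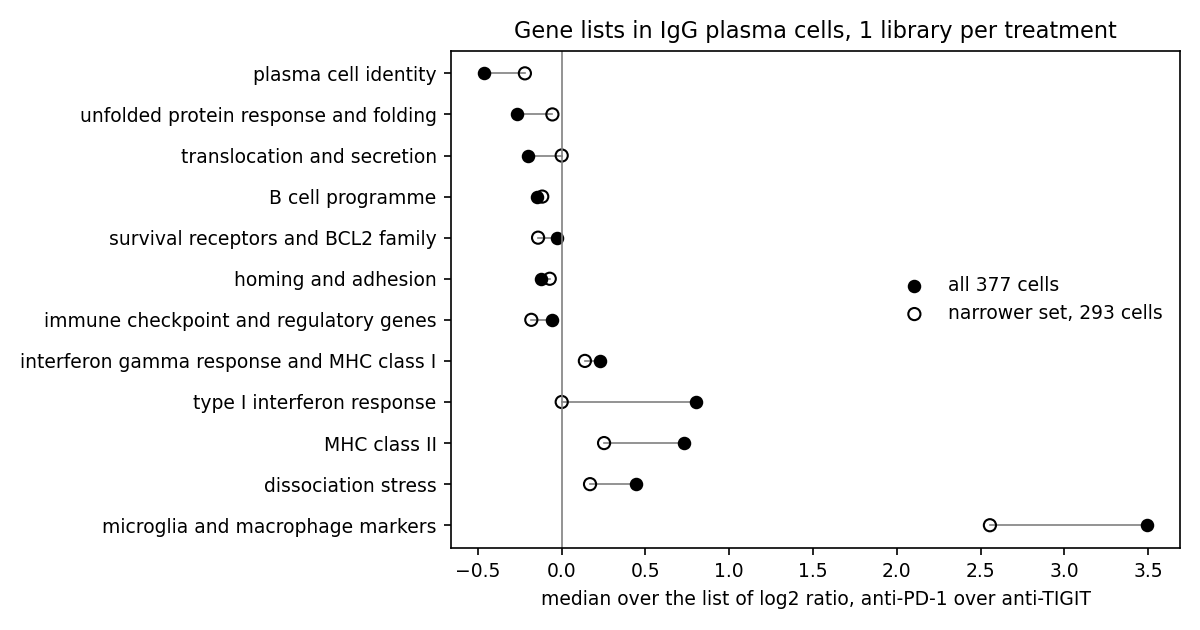
Median log2 ratio over the genes of each list, anti-PD-1 level divided by anti-TIGIT level (x axis), with filled points for all 377 IgG plasma cells and open points for the narrower set of 293 cells. Plasma cell identity lies at -0.46 and -0.22, MHC class II at 0.73 and 0.25, and microglia and macrophage markers, by which the narrower set was formed, at 3.49 and 2.56.

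IgG and IgA plasma cells were compared within each library, which holds treatment and pool constant. Ly6c2, Slpi, Cox4i2, Gpr18 and Calhm6 were higher in IgG plasma cells, and Tnfrsf17, Tigit, Btla, Ccr10 and Txndc5 were lower. The test was edgeR's quasi-likelihood test on sums per library and class with the library as a block and Benjamini-Hochberg adjustment, without the genes of the rule. At an adjusted p of 0.05 it called 13 of 8536 genes higher (0.152%) and 9 lower (0.105%), and 688 genes had an unadjusted p under 0.05.

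These calls rest on 4 sums and depend on the model and on the cells. Without the library block edgeR called 0 genes, with 305 at an unadjusted p under 0.05, and DESeq2 with the block called 8 and 7. Leaving out cells of V segment pairs with 5 or more cells also gave 0 calls from edgeR, with 383 at an unadjusted p under 0.05. The narrower set gave 74 higher and 54 lower of 6993 (1.06% and 0.772%), with 668 at an unadjusted p under 0.05. It called 19 of the 22 genes, each in the same direction. The prior degrees of freedom, the weight edgeR gives to a spread shared across genes, were 5.68 in all cells and 22.3 in the narrower set. How far this weight or the choice of cells made the larger number of calls was not tested.

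Ly6c2, a GPI-anchored surface protein of plasma cells and monocytes, was at 6233 CPM in IgG and 1479 CPM in IgA plasma cells under anti-PD-1 and at 7374 and 1290 CPM under anti-TIGIT. The log2 fold change was 2.23 ± 0.11 (SE; edgeR, Benjamini-Hochberg adjusted p 0.00271), higher in both libraries. A UMI was seen in 89.6% and 86.7% of IgG plasma cells, 72.8% and 70.4% of IgA plasma cells, and 4.87% and 2.02% of oligodendrocytes. Slpi, a secreted inhibitor of leukocyte proteases, was at 13634 against 6299 CPM and at 10611 against 3846 CPM (1.23 ± 0.09, edgeR, Benjamini-Hochberg adjusted p 0.00977). It was among the most abundant transcripts outside the immunoglobulin segments, and B cells had 54.3 and 62.2 CPM.

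Cox4i2, a subunit isoform of cytochrome c oxidase, was low but nearly absent from IgA plasma cells, at 31.7 against 0.654 CPM and at 28.4 against 0 CPM. Gpr18, a lipid-sensing receptor of lymphocytes, was at 79.9 against 17.0 CPM and at 76.9 against 19.5 CPM. Calhm6, an ion channel gene induced by interferon gamma, was at 71.7 against 17.0 CPM and at 60.2 against 12.5 CPM. Oosp1 (298 against 94.9, 411 against 100), Pon3 (266 against 71.3, 406 against 138) and Napsa (225 against 104, 321 against 134) were higher in IgG cells of both libraries too, as were Prdx4, Ssr4 and Cd74, with log2 fold changes of 0.81, 0.72 and 0.48.

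The other 2 genes called higher varied widely between the libraries. Mgp was at 320 against 29.4 CPM in the anti-PD-1 library and at 0 against 1.39 CPM in the anti-TIGIT library. Apoe, a lipid carrier of microglia and macrophages, was at 2163 against 995 CPM and at 117 against 43.2 CPM. The macrophage markers it belongs to summed to 6717 and 421 CPM in IgG and to 4137 and 372 CPM in IgA plasma cells, and in the narrower set its log2 fold change was -0.21.

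Tnfrsf17, which encodes BCMA, the receptor through which APRIL keeps plasma cells alive, was lower in IgG plasma cells. It was at 25.1 against 126 CPM and at 41.8 against 119 CPM (log2 fold change -2.07 ± 0.24, edgeR, Benjamini-Hochberg adjusted p 0.0375). A UMI was seen in 13.6% and 17.3% of IgG and 43.8% and 48.1% of IgA plasma cells, against 0.164% and 0.259% of oligodendrocytes. After thinning to 1000 UMIs the shares were 3.97% and 4.08% in IgG against 10.7% and 13.0% in IgA plasma cells, with the same order in both libraries.

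Ccr10, the chemokine receptor that guides IgA cells to mucosal epithelia, was at 61.4 against 154 CPM and at 97.0 against 310 CPM (-1.54 ± 0.16, edgeR, Benjamini-Hochberg adjusted p 0.0288). Tigit was at 35.3 against 113 CPM and at 51.8 against 170 CPM (-1.75 ± 0.18, edgeR, Benjamini-Hochberg adjusted p 0.0269). The target of one of the antibodies was thus carried more by IgA than by IgG plasma cells in both libraries, with a UMI in 11.5% and 17.3% of IgG and 30.4% and 41.7% of IgA cells. Oligodendrocytes gave 6.55% and 1.24%. Btla, an inhibitory receptor, was at 23.6 against 77.2 CPM and at 41.8 against 137 CPM.

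Txndc5, a disulfide isomerase of the endoplasmic reticulum, was at 630 against 1650 CPM and at 869 against 2147 CPM (-1.40 ± 0.08, edgeR, Benjamini-Hochberg adjusted p 0.00297). Nr4a1, an early-response nuclear receptor, and Glipr1 were lower by -1.33 and -1.01 on the log2 scale. The other 2 genes called lower were held by few cells. Among anti-PD-1 IgA plasma cells 105 of 121 Spp1 UMIs lay in 1 cell, and in the anti-TIGIT library 97 Hist1h2ae UMIs lay in 1 cell.

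**Figure D5:**
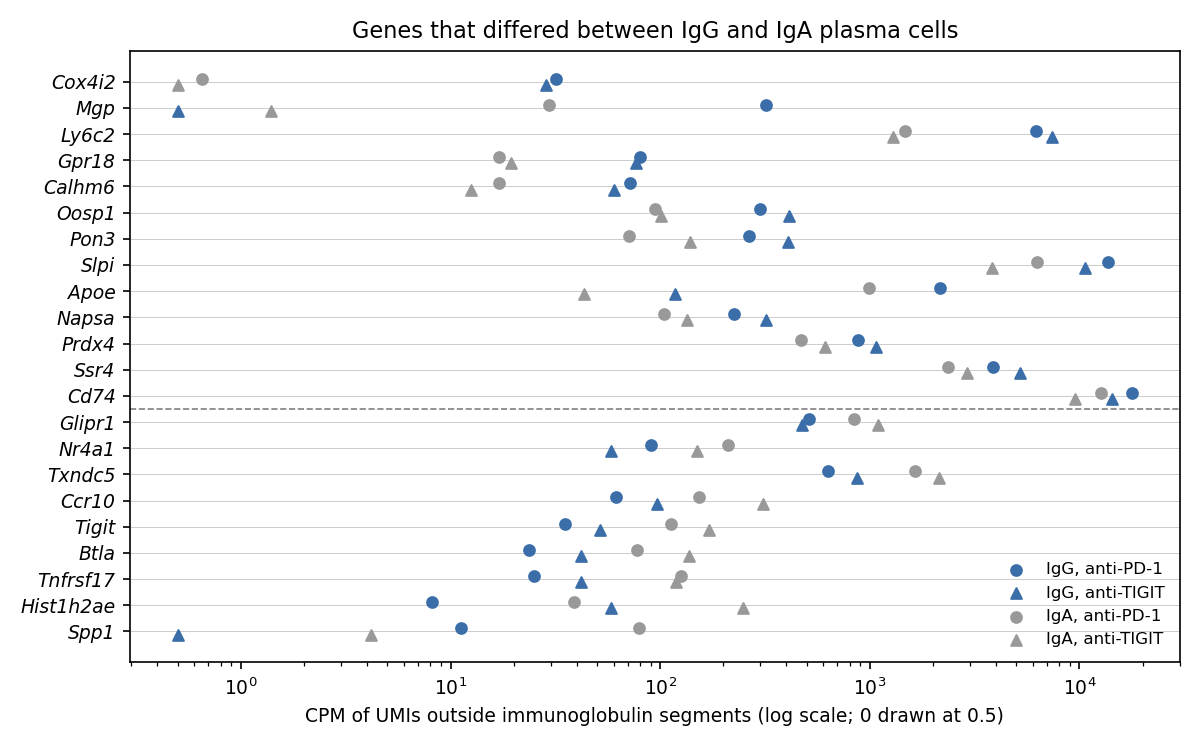
Level of the 22 genes called between IgG and IgA plasma cells (x axis, CPM of UMIs outside immunoglobulin segments, log scale, 0 drawn at 0.5), with blue for IgG, grey for IgA, circles for the anti-PD-1 and triangles for the anti-TIGIT library. Genes above the dashed line were higher in IgG plasma cells, and for 21 of the 22 both libraries show the same order, Mgp being the exception.

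Few genes of the lists passed this test in all cells. Of 15 plasma cell identity genes Ly6c2 was called higher and Tnfrsf17 and Txndc5 lower, of 26 translocation genes Ssr4 was called higher, of 8 MHC class II genes Cd74, of 13 checkpoint genes Tigit and Btla were called lower, and of 16 homing genes Ccr10. No gene was called by edgeR with Benjamini-Hochberg adjustment among 23 of the unfolded protein response (median log2 fold change -0.014), 22 of the interferon gamma response and MHC class I (0.21), 12 of type I interferon (0.66) and 14 of the cell cycle (-1.47), where the median of all genes was -0.0024. In the same order 4, 6, 7 and 11 of these genes had an unadjusted p under 0.05, and DESeq2 called none of them. The cell cycle list summed to 780 and 619 CPM in IgG and to 1060 and 2139 CPM in IgA plasma cells.

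In the narrower set, where the prior degrees of freedom were higher as given above, the same test called more genes of these lists. Ms4a1, which encodes CD20, and Cd79a and Cd79b, the signalling chains of the B cell receptor, were higher in IgG plasma cells, 3 of 8 tested genes of the B cell programme. Ms4a1 was at 151 against 51.0 CPM and at 173 against 49.3 CPM (log2 fold change 1.62, edgeR, Benjamini-Hochberg adjusted p 3.25e-05). Of 13 homing genes the chemokine receptors Cxcr3 (log2 fold change 1.15) and Cxcr4 (1.10) were higher, and Ccr10 and Klf2, a factor of lymphocyte quiescence and trafficking (-1.06), were lower. Cxcr3 was at 267 against 102 CPM and at 283 against 144 CPM. B2m and H2-K1 were called higher, 2 of 20 genes of the interferon gamma response and MHC class I, whereas Ifi27l2a and Bst2 were called lower, 2 of 6 type I interferon genes. Xbp1, H2-Aa, Spcs3, a signal peptidase subunit, Slc3a2, an amino acid transporter chain, and Jun were also higher, and Ier2 lower. Markers of other cell types were among the calls. Mog was higher, at 77.0 against 45.1 CPM and 85.6 against 25.5 CPM, and Cd209a lower, at 0 in IgG plasma cells of both libraries. Of the Mog UMIs in IgG plasma cells, 29 of 93 and 21 of 45 lay in 1 cell of each library. Of the Cd209a UMIs in IgA plasma cells, 12 of 13 and 8 of 9 lay in 1 cell of each library. No gene was called among 23 of the unfolded protein response and 10 of the cell cycle, where 6 and 3 had an unadjusted p under 0.05. Median log2 fold changes in the narrower set were -0.017 for the unfolded protein response and -0.67 for the cell cycle. They were 0.11 for the interferon gamma response and MHC class I and 0.11 for type I interferon.

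Ighg2c-led cells differed from Ighg2b-led cells in few genes. edgeR with the library block called 4 of 5519 genes higher in Ighg2c-led cells (0.0725%) and 0 lower, with 210 at an unadjusted p under 0.05, and 0 in the narrower set, with 184. Ighg1-led cells were left out, as the anti-TIGIT library had 3. Ptgds, a prostaglandin D synthase of glia and meninges, was at 293 against 22.4 CPM and at 435 against 42.2 CPM (log2 fold change 3.62, edgeR, Benjamini-Hochberg adjusted p 0.000124), but 175 of 368 and 119 of 160 UMIs lay in 1 cell. Ly6k was at 66.1 against 2.04 CPM and at 261 against 0 CPM, and 4 of its 7 cells with called V segments in the anti-PD-1 library carried Ighv1-74 with Igkv6-20, as 3 of 5 in the anti-TIGIT library carried Ighv3-2 with Igkv10-96. Cxcl9 was at 308 against 44.8 CPM in the anti-PD-1 library and at 0 in both subclasses of the other, and Ptn, a growth factor of glia, at 178 against 32.6 CPM and at 21.8 against 9.37 CPM with 130 of 224 UMIs in 1 cell.

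Against B cells, which the rule separates from plasma cells by Jchain and Mzb1, values are given with no test. B cells were taken as barcodes with at least 1 UMI of Ms4a1 and 2 of Cd79a and less Jchain than the rule asks, 187 and 141 in number. Besides Slpi, Ly6c2 and Sdc1, the genes furthest above were Prdx4 (877 and 1070 CPM against 35.6 and 40.01), Plpp5 (226 and 298 against 5.67 and 5.93), Trp53inp1 (730 and 801 against 24.3 and 32.6), Pycr1 (150 and 181 against 2.43 and 2.96) and Fkbp11 (386 and 376 against 4.86 and 13.3). Furthest below were Cdh17 (0.512 and 0 against 117 and 90.4), Bank1 (26.6 and 51.8 against 610 and 929), Ccr7 (11.8 and 10.0 against 341 and 240), Spib (2.05 and 0 against 94.8 and 163), Cxcr5 (2.56 and 6.69 against 151 and 159), Aff3 (12.8 and 23.4 against 239 and 415), Pax5 and Ltb (35.3 and 75.2 against 969 and 956). These are the receptors and factors of the mature B cell, while Cd74 and Cd79a stayed abundant in IgG plasma cells, the latter at 3000 and 3424 CPM.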

How the data were processed

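The authors deposited raw UMI counts for each gene in each barcode of 5′ single-cell libraries, 10 pooled mice each. Per the file headers the counts come from Cell Ranger 8.0.0 (anti-PD-1) and 8.0.1 (anti-TIGIT). The submitters' processing notes name mm10, Seurat 5.0.3 and R 4.1.1. How the authors called cells is not given in the sources used here. The files cover 32285 genes.

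The cells, gene lists (310 genes in 22 lists, all in the files) and comparisons were chosen with earlier results of these data known. Raw counts were summed per library and class. CPM leaves out UMIs of 392 immunoglobulin segments. Shares have Clopper-Pearson intervals, differences of shares intervals combined from them, and ratios exact conditional binomial intervals, all at 95% and for counting error only. IgG against IgA plasma cells, and Ighg2c-led against Ighg2b-led cells, were tested with edgeR 4.0.16 (filterByExpr, TMM, quasi-likelihood, library as a block because both sums of a library come from the same mice) and Benjamini-Hochberg adjustment. The 2 libraries are the only samples. With the block, p-values rest partly on how far the difference between the compared classes varies from library to library. Each gene has only 2 libraries to show this, so most weight lies on a spread estimated across genes. The prior degrees of freedom, which set that weight, were 5.681 for IgG against IgA in all cells and 22.31 in the narrower set. The calculation was tested on simulated data.

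Named genes were the 12 largest log2((CPM + 5)/(CPM + 5)) in each direction among genes with at least 50 UMIs and a UMI in at least 5% of cells of a library, without mitochondrial, ribosomal protein, haemoglobin, receptor segment, sex-linked and unnamed predicted genes and genes below 25% of their CPM in other barcodes, the genes called by edgeR, and for B cells the 8 largest in each direction. List genes could be named as well, and 1 gene of the rule is not reported here. Doublets were scored with Scrublet (scanpy 1.11.5) at an expected 0.8% per 1000 cells, which marked 4.16% and 2.03% of barcodes, and the rule keeps them. DESeq2 1.42.0 and other limits on barcodes, Jchain, Mzb1, Cd3 genes, doublets, isotype, sex, denominator, pseudocount, low counts, scaling and depth were tried. The narrower set, the limit of 1000 immunoglobulin UMIs, the oligodendrocyte gate and leaving out large V segment pairs were added after the data had been seen. Calculations ran in R 4.3.3 and in Python 3.11.15 (matplotlib 3.10.9, pandas 2.3.3, scipy 1.17.1, numpy 2.4.6).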

Additional observations from a re-analysis of the deposited data

How the results depend on the processing

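With 1 library per treatment no alternative can speak to the spread between mice, and intervals cover counting error only. Of the values that answer a comparison, 87 alternatives stayed close to the value reported and 39 moved. For single genes and lists 752 stayed, 101 moved, 66 no longer passed their threshold and 6 turned direction. The causes of these changes were not tested. The alternatives tried include some that could hardly move a value. Scrublet called no IgG plasma cell a doublet, so leaving out doublets kept the same IgG plasma cells. The edgeR counts of IgG against IgA plasma cells stayed at 13 and 9. Scaling to the median of all genes moved that median from 0.015 to 0 and shifted all log2 ratios alike. Values that stayed under these alternatives do not show that a result is stable.

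The difference in the share of kept barcodes, 0.848 points, was 1.29 with no limit on Cd3 genes, 1.84 among Xist cells, 0.410 among cells with Y-linked transcripts, 0.291 in the narrower set and 0.409 without large V segment pairs. The difference in the share of plasma cells that are IgG, 7.67 points, was -3.56 without those pairs. No subclass share and no gene could be compared among Xist cells, of which the anti-TIGIT library had 2.

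The 336 genes at least 2-fold higher became 202 with a pseudocount of 20 CPM, 964 with at least 10 counts, 73 with at least 200, 213 among cells with Y-linked transcripts, 52 in the narrower set and 66 after thinning to 1000 UMIs. The 36 lower genes became 9 with all UMIs as denominator, 59 and 17 with pseudocounts of 1 and 20, 112 and 9 with at least 10 and 200 counts, 72 without large V segment pairs and 19 after thinning. The median of the unfolded protein response turned to 0.057 and that of translocation to 0.12 with all UMIs as denominator, which moved all genes to 0.27, and the latter to 0.00065 in the narrower set, where Hist1h2ae turned to 0.19.

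Between IgG and IgA plasma cells the edgeR counts of 13 higher and 9 lower became 0 and 0 with no replicate block, 164 and 131 with no filter, 39 and 46 with Jchain of at least 10 UMIs, 77 and 70 with at least 40, 27 and 33 with a leading gene of at least 80%, 74 and 54 in the narrower set and 0 and 0 without large V segment pairs. They became 8 and 7 with DESeq2, 8 and 7 with B cells added to the fit and 24 and 13 after thinning. The pairing by library comes from the design, since both sums of a library share its mice. Each of the 22 called genes that could be measured kept its direction under these alternatives, except Apoe in the narrower set (-0.21) and Mgp, which with 1 library left out ran from -0.35 to 3.24. Between subclasses the 4 genes became 0 in the narrower set. V segment pairs held by 2 or more cells fell to 81.7% and 61.8% of cells when the heavy chain J segment had to match, and kappa J segments had no UMIs in the files.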
